A study of Mus musculus with 8 samples.

Results

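The genes described here responded to the drug CSA in the same direction at day 3 and at day 6 of reprogramming of mouse cells to pluripotency. They were found by comparing 4 CSA arrays with 4 DMSO arrays, with day as a covariate, over all 12529 genes that could be tested of 18193 genes on the array. A gene was read from 1 probe set, the tested one with the highest mean signal over the 8 arrays. It was counted as lasting where the adjusted p of limma over both days was under 0.05 and, at each day, both CSA arrays lay above both DMSO arrays, or both lay below them. By this count 1254 genes were lasting, 684 of them higher and 570 of them lower with CSA.

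All cells were on a C57BL/6 background and came from a secondary reprogramming system, in which the factors Oct4, Sox2, Klf4 and Myc (OSKM) are switched on by doxycycline. The labels give doxycycline as 2 mg/ml, in embryonic stem cell medium with 15% FBS and 100 units/ml leukemia inhibitory factor, for all groups. CSA, written as 10 mM, or its solvent DMSO was given, and cells were taken at day 3 or day 6. Both doses are printed as the labels write them, and it was not possible to tell whether milli stands there for micro. This makes 4 groups of 2 arrays each, which the design text calls biological repeats. Nothing in the labels names the alleles of the secondary cells, the cell type they were made from or the number of animals behind them. The series title speaks of inhibition of the calcineurin-NFAT pathway, and the question was which genes differ under it.

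Cyclosporin A, the compound usually abbreviated CSA, binds cyclophilins, and the complex blocks calcineurin, the phosphatase that lets NFAT factors enter the nucleus. A separate and well described route is the integrated stress response. There, kinases phosphorylate the initiation factor eIF2alpha, general translation falls, and the mRNA of the transcription factor ATF4 is translated; ATF4 and its partner CHOP (Ddit3) then switch on genes for amino acid supply and tRNA charging. The unfolded protein response of the endoplasmic reticulum (ER) shares that branch and adds ATF6 and the splicing of Xbp1, which raise chaperones and the machinery that degrades misfolded proteins.

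The unit throughout is the deposited log2 signal of MAS5, and an effect is the CSA mean minus the DMSO mean on that scale. The median signal of all probe sets ran from 6.15 to 6.53 between arrays. The first principal component held 48.5% of the variance and separated the days, and the second held 13.9% and separated CSA from DMSO at both days. Of the genes of the reprogramming factors, Klf4 had an effect of 0.12 over both days (SE 0.09, limma adjusted p = 0.473), Pou5f1 (Oct4) of -0.29 (SE 0.27, adjusted p = 0.582), and Myc of -0.28 (SE 0.07, adjusted p = 0.0386). Myc lost its call without any 1 array except CSA day 6 replicate 1 (adjusted p = 0.061 to 0.122), and Klf4 passed on the mean of its probe sets (0.28, adjusted p = 0.032). Whether these probe sets read the transgenes was not tested.

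Over both days limma called 704 genes higher (5.62% of genes tested) and 583 lower (4.65%). After the condition on the arrays of each day, 5.46% of all genes were lasting and higher and 4.55% were lasting and lower. With 2 arrays per group that condition is weak by itself. At any p, 2908 of 12529 genes met it in 1 direction, and 1448 had arrays apart in opposite ways at the 2 days. It removed 33 of 1287 called genes. The median size of the effect was 0.50 among the lasting rises and 0.47 among the lasting falls, and 84 rises and 58 falls reached 2-fold over both days. The stricter reading, past 0.05 at day 3 and again at day 6, held for 421 genes (3.36% of genes), 259 rises (2.07%) and 162 falls (1.29%). Of the other lasting genes, 363 passed at day 3 alone, 332 at day 6 alone, and 138 only when the days were combined. Among the lasting genes with several tested probe sets, 704 in number, another probe set passed in the same direction for 304 genes and in the opposite direction for 1, the non-coding snoRNA host gene Gas5, named here because it is the only one. It read -0.13 (adjusted p = 0.375) once probe sets with names ending in _a_at, _s_at or _x_at were left out. These endings mark probe sets that can read several transcripts or genes, called suffixed below. The number of calls moved with the variance model and with single arrays. Where the prior variance did not follow the signal level (no intensity trend), 186 rises and 140 falls were lasting, and most of the lists below kept fewer members too. The ATF4 and CHOP list (8), the glycolysis and hypoxia list (4) and the p53 list (1) kept their counts. The glycolysis and hypoxia list did not keep all its members: Egln3, a lasting fall, lost its call there (-0.51, limma adjusted p = 0.142). Without CSA day 3 replicate 1 or 2 the lasting rises fell to 444 or 433 and the lasting falls to 369 or 317. Without DMSO day 6 replicate 1 or 2 the lasting falls came to 304 or 349. The calls at each day fell to 133 to 163 rises and 73 to 81 falls without any of these 4 arrays, and to 106 falls without CSA day 6 replicate 2.

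**Figure D1:**
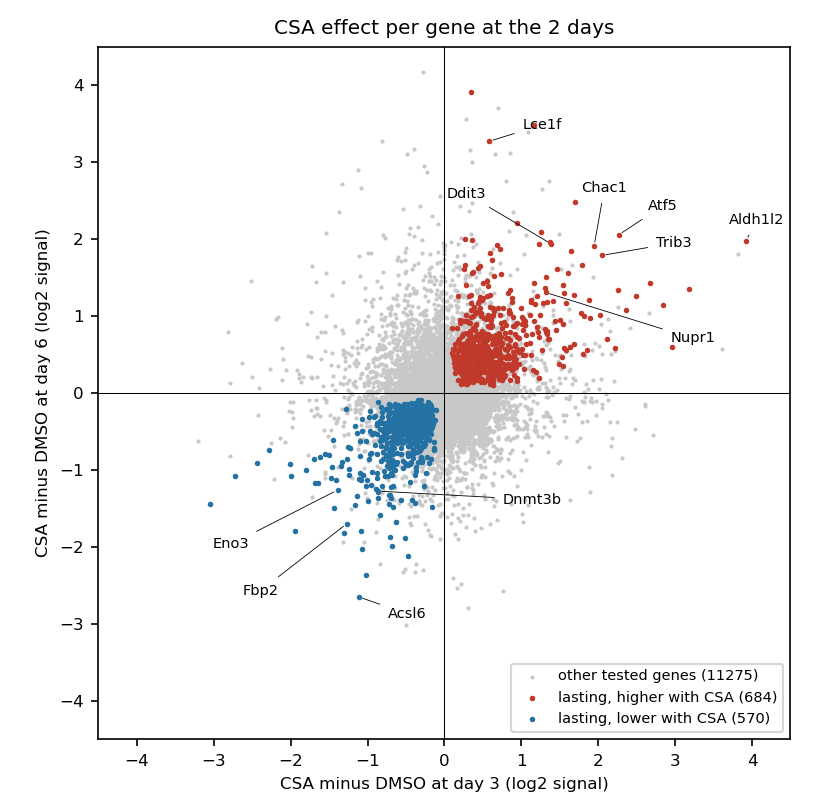
CSA minus DMSO (log2 signal) at day 3 on the horizontal axis and at day 6 on the vertical axis, 1 point per tested gene; red and blue points are the 684 and 570 lasting genes and grey points the others. Atf5, Chac1 and Trib3 lie near the diagonal far from the origin, Aldh1l2 lies to the right of it, and Lce1f lies high because most of its rise was at day 6.

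The arrays of the 2 days are different arrays, so genes chosen at one day can be read at the other. The days do share 1 estimate of each gene's spread, so a gene with a small spread passes more easily at both. At day 3, 895 genes were higher (7.14% of genes) and 692 were lower (5.52%). Of those higher, 69.9% had the same sign at day 6, 28.9% passed again in the same direction and 5.92% passed in the opposite direction. Of all genes 6.41% passed as higher at day 6 and 6.11% as lower. Of those lower at day 3, 75.3% had the same sign, 23.4% passed again and 2.17% passed as higher. Read the other way, 78.0% of the 803 genes higher at day 6 and 66.4% of the 766 genes lower at day 6 had the same sign at day 3. For comparison, 48.6% and 51.4% of all genes were above and below 0 at day 6, and 49.3% and 50.7% at day 3. The effects shrank at the day not used for the choice: the median of the genes higher at day 3 was 0.55 there and 0.18 at day 6. Over all genes the Pearson correlation of the 2 effects was 0.20, and it was 0.39 over the 4340 genes with a mean signal of at least 10; these are correlations across genes, which share arrays and are not replicates. At both days 68 genes passed in opposite directions. With each day's 4 arrays fitted alone, 57 genes did so, and 241 rises and 133 falls passed at each day. Without CSA day 3 replicate 1 or 2, the calls at day 3 came to 705 or 643 genes of 1587 and the opposite pairs to 17 or 19. Without DMSO day 6 replicate 1 or 2 or CSA day 6 replicate 1 or 2 the calls at day 6 came to 766, 687, 1011 or 840 of 1569 and the opposite pairs to 38, 30, 45 or 43.

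Among the largest rises were regulators of the integrated stress response, though not these alone. Ank2 and P2rx3, on none of the lists, rose by 1.65 to 2.35 and 1.60 to 2.06 over 21 other settings. Atf5, a transcription factor translated under the same control as ATF4, read 9.14 and 9.29 in DMSO and 11.44 and 11.51 in CSA at day 3, and 9.21 and 9.01 against 11.21 and 11.12 at day 6. This is a 4.47-fold rise over both days (log2 2.16, SE 0.09, limma adjusted p = 1.66e-07). The arrays of a group stood close together, and the gap between CSA and DMSO was about the same at each day.

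Chac1, which degrades glutathione, read 7.50 and 7.84 in DMSO and 9.75 and 9.48 in CSA at day 3, and 7.66 and 7.84 against 9.78 and 9.55 at day 6 (3.81-fold, log2 1.93, SE 0.13, adjusted p = 1.36e-05). Trib3, a pseudokinase induced by ATF4 and CHOP, read 8.20 and 7.71 against 10.16 and 9.85 at day 3 and 8.01 and 7.67 against 9.75 and 9.51 at day 6 (3.78-fold, log2 1.92, SE 0.15, adjusted p = 3.73e-05). Ddit3, which encodes CHOP, read 8.29 and 8.72 against 9.89 and 9.90 at day 3 and 8.47 and 8.55 against 10.55 and 10.34 at day 6 (3.17-fold, log2 1.66, SE 0.14, adjusted p = 5.96e-05). In all of these the lowest CSA array lay at least 1 log2 unit above the highest DMSO array of its day.

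Nupr1, a small stress-induced chromatin protein, was bright in all cells and rose by the same amount at each day: 12.07 and 12.03 in DMSO and 13.43 and 13.31 in CSA at day 3, and 11.98 and 11.90 against 13.22 and 13.29 at day 6 (2.48-fold, log2 1.31, SE 0.05, adjusted p = 1.66e-07). Vldlr, a lipoprotein receptor induced through ATF4, rose by 1.60 at day 3 and 1.55 at day 6 (adjusted p over both days 5.96e-05). Atf4 itself was bright and rose less: 12.01 and 11.94 against 12.65 and 12.55 at day 3, and 11.99 and 11.96 against 12.33 and 12.45 at day 6 (1.43-fold, log2 0.52, SE 0.06, adjusted p = 0.000763). Of the 18 tested ATF4 and CHOP regulators 8 were lasting rises and none was a lasting fall; all 8 also passed at each day by itself. The count was 8 without any 1 array except CSA day 6 replicate 1, where it was 9, and 4 without suffixed probe sets. The median effect of the list was 0.35, against -0.01 over all genes tested. It was larger at day 3 (0.64) than at day 6 (0.20). As higher, 13 members passed at day 3 and 8 at day 6, against 7.14% and 6.41% of all genes. By the interaction test 2 members had the lower effect at day 6.

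**Figure D2:**
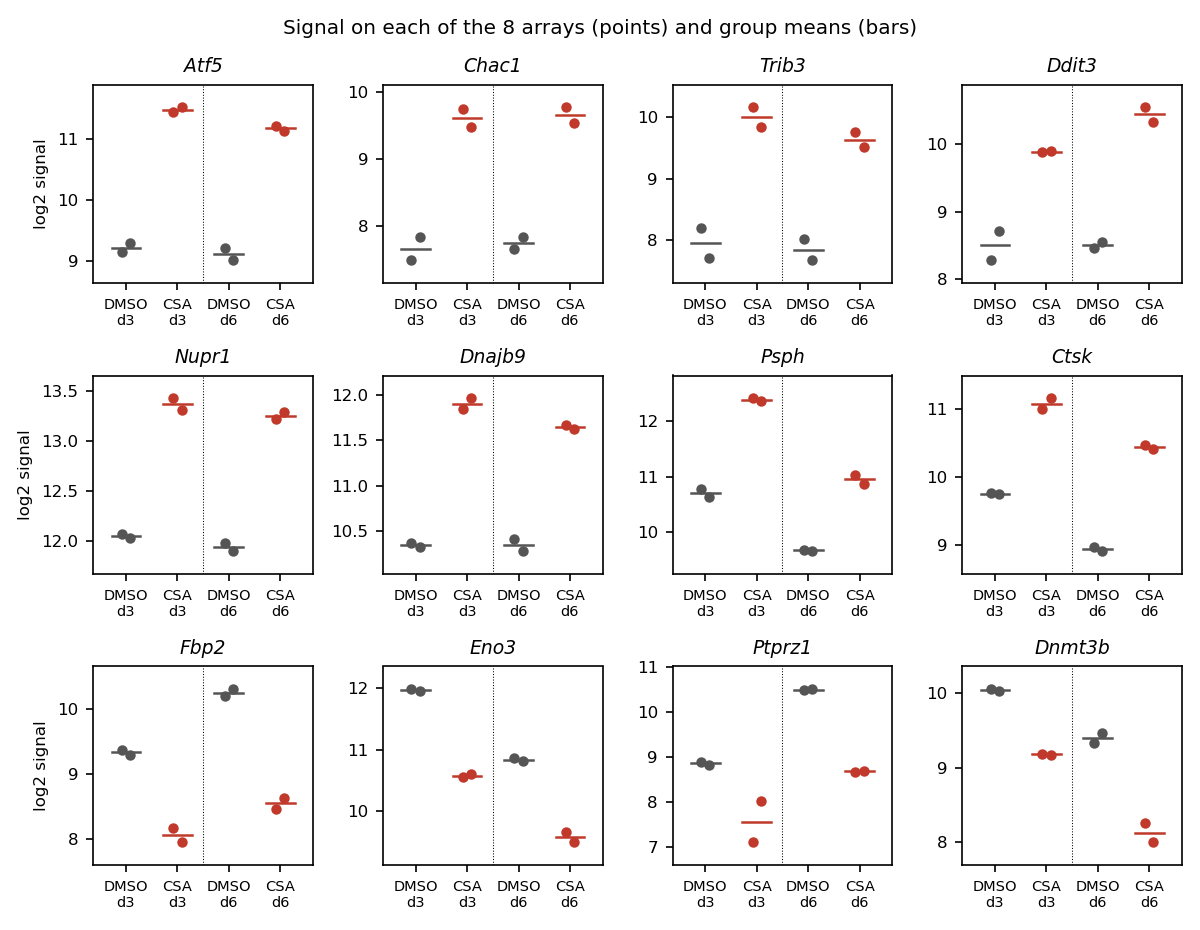
Log2 signal of 12 genes on each of the 8 arrays (points; grey DMSO, red CSA) with group means (bars), day 3 left and day 6 right of the dotted line; vertical scales differ between genes. In the first 8 panels both CSA arrays lie above both DMSO arrays at each day, and in the last 4, Fbp2, Eno3, Ptprz1 and Dnmt3b, they lie below.

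ATF4 acts with C/EBP partners at composite sites, and the letters of the core of such a site, TGATGNAA, were searched on both strands of RefSeq promoters of GRCm38.p6, each 250 bases before to 50 bases after a gene's start. Windows of 4 lasting rises are shown because each holds a match upstream of the start, in capitals; all are written 5′ to 3′ on the gene's strand and read the core in reverse. They are Chac1 at chr2:119351009-119351096 (plus strand), Nupr1 at chr7:126625533-126625620 (minus strand), Vldlr at chr19:27216780-27216867 (plus strand) and Aars, an alanyl-tRNA synthetase, at chr8:111033690-111033777 (plus strand).
Chac1: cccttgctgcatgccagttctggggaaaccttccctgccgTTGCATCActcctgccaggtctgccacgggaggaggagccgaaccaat
Nupr1: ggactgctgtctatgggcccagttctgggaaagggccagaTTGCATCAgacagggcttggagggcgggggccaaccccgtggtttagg
Vldlr: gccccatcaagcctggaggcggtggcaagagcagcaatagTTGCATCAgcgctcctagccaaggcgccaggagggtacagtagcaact
Aars: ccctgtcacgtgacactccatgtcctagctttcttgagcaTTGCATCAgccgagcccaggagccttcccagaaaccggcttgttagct
A match was present in 7 of 17 promoters of the 15 rises that were largest at their weaker day (41.2%; 12 of the genes were in the promoter table), in 40 of 710 promoters of all lasting rises (5.63%), in 13 of 604 of the lasting falls (2.15%) and in 2.30% of the promoters of all genes tested. A match is a description of letters, and binding was not measured.

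Of 17 tested genes for making serine, one-carbon units and asparagine, 8 were lasting rises (5 without the trend) and 2 were lasting falls, with a median of 0.28. The median was 0.39 at day 3 and 0.23 at day 6. As higher, 11 members passed at day 3 and 6 at day 6, against 7.14% and 6.41% of all genes. Aldh1l2, a mitochondrial 10-formyltetrahydrofolate dehydrogenase, read 6.57 and 6.59 in DMSO and 10.56 and 10.44 in CSA at day 3, and 7.94 and 7.81 against 9.86 and 9.85 at day 6 (log2 2.95, SE 0.30, adjusted p = 0.000203). Its rise was 15.2-fold at day 3 and 3.94-fold at day 6, and the difference between the days passed the interaction test (-1.94, adjusted p = 0.000781). DMSO arrays read higher at day 6 than at day 3, and CSA arrays read lower.

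Psph, the last enzyme of serine synthesis, read 10.77 and 10.63 against 12.41 and 12.36 at day 3 and 9.69 and 9.66 against 11.03 and 10.87 at day 6 (2.79-fold, log2 1.48, SE 0.09, adjusted p = 8.26e-06). Mthfd2, the mitochondrial folate enzyme, rose by 0.92 at day 3 and 0.64 at day 6 (adjusted p = 0.000183), and Psat1, of the same serine pathway, by 0.45 and 0.61 (adjusted p = 0.00026). Mthfd1, the cytosolic folate enzyme, went the other way and was 0.57 and 0.52 lower (adjusted p = 0.000599). Within folate metabolism the mitochondrial and the cytosolic enzyme therefore moved in opposite directions at both days.

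Of 16 tested amino acid transporters 7 were lasting rises (4 without the trend) and 1 was a lasting fall (median 0.34). The median was 0.48 at day 3 and 0.26 at day 6. As higher, 8 members passed at day 3 and 4 at day 6, against 7.14% and 6.41% of all genes. Slc7a5, the leucine transporter, rose 1.95-fold (1.04 at day 3 and 0.89 at day 6, adjusted p = 8.52e-05), and its partner chain Slc3a2 rose by 0.55 and 0.59 (adjusted p = 0.000394). Slc7a11, the cystine transporter that pairs with Slc3a2, was dim: it read 5.01 and 4.13 in DMSO and 7.33 and 7.16 in CSA at day 3, and 5.87 and 5.02 against 6.85 and 6.91 at day 6 (4.14-fold, log2 2.05, SE 0.38, adjusted p = 0.00694). Its arrays did not overlap at either day, but at signals this low the size of the fold depends on background, and at day 6 alone it did not pass (adjusted p = 0.0913).

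Cytosolic aminoacyl-tRNA synthetases, which charge tRNAs with their amino acids, had 10 lasting rises and no lasting fall among 19 tested (52.6%, median 0.20). The rises came to 6 without any 1 of the 4 arrays of day 3, DMSO or CSA, and to 3 without the trend. Aars read 10.63 and 10.98 against 12.03 and 11.85 at day 3 and 10.97 and 10.90 against 11.57 and 11.84 at day 6 (1.94-fold, log2 0.95, SE 0.11, adjusted p = 0.000349). Nars, the asparaginyl enzyme, rose by 0.57 at each day (adjusted p = 0.000164), and Cars, the cysteinyl enzyme, by 0.80 and 0.45 (adjusted p = 0.00154). The core of the composite site was found in 5 of 12 promoters of this list.

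The degradation and translocation machinery of the ER had the highest share of lasting rises of the lists with at least 9 tested members: 14 of 19 (73.7%; 3 without the trend), with no lasting fall and all 19 effects above 0 (median 0.34). Lists and members were chosen with earlier results of these data known, so the shares of all lists are descriptions and not tests. Herpud1, which organises ER-associated degradation, read 10.28 and 10.25 against 11.67 and 11.69 at day 3 and 9.99 and 10.01 against 11.25 and 11.14 at day 6 (2.47-fold, log2 1.31, SE 0.07, adjusted p = 3.83e-06). Sec63, of the translocation channel, rose by 0.71 and 0.68 (adjusted p = 0.000101), and Selenos, a selenoprotein of the degradation complex, by 0.50 and 0.71 (adjusted p = 0.000573).

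Among 20 tested ER chaperones and folding enzymes 8 were lasting rises (4 without the trend, 5 without suffixed probe sets). All 20 effects were above 0 (median 0.29). Dnajb9, an ER co-chaperone, read 10.37 and 10.32 against 11.84 and 11.96 at day 3 and 10.41 and 10.28 against 11.67 and 11.62 at day 6 (2.69-fold, log2 1.43, SE 0.08, adjusted p = 3.02e-06). Dnajc3, which also inhibits the eIF2alpha kinase PERK, rose by 0.63 and 0.68 (adjusted p = 0.000315). Manf, a secreted stress protein, rose by 0.37 and 0.47 (adjusted p = 0.000672). Ero1a, the oxidase of disulfide formation, rose more at day 3 (1.27) than at day 6 (0.56), a difference that passed the interaction test (-0.71, adjusted p = 0.0101).

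Hspa5 (BiP), the most abundant ER chaperone, moved least of those named: 14.15 and 13.82 against 14.39 and 14.29 at day 3 and 13.85 and 13.62 against 14.09 and 13.91 at day 6 (1.24-fold, log2 0.31, SE 0.08, adjusted p = 0.0353). It did not pass at either day alone and lost its call without the trend (adjusted p = 0.195) and without DMSO day 3 replicate 2, CSA day 3 replicate 1 or 2, DMSO day 6 replicate 2 or CSA day 6 replicate 1 (adjusted p = 0.0739 to 0.105). Xbp1, the spliced transcription factor of this response, rose by 0.70 and 0.29 (adjusted p = 0.00321), less at day 6 by the interaction test (-0.40, adjusted p = 0.0371). It was not called without suffixed probe sets (0.32, adjusted p = 0.251) or without the trend (adjusted p = 0.0673). Creb3l2, a related ER-bound factor, rose by 0.97 and 0.54 (adjusted p = 0.00234). The unfolded protein response element, searched as TGACGTGG, was in 0 of 21 promoters of the chaperone list. It was in 0 of 17 of the degradation and translocation list. Its share was 1.55% in lasting rises, 0% in lasting falls and 0.88% in all genes tested. The classical ER stress element, CCAAT and CCACG with 9 bases between them, was found in 8 of 21 promoters of the whole chaperone list, lasting or not. It was in 4 of 710 promoters of lasting rises (0.563%), 2 of 604 of lasting falls (0.331%) and 0.116% of those of all genes tested. The windows of Dnajc3 (chr14:118937787-118937885, plus strand) and Hspa5 (chr2:34771985-34772083, plus strand) are shown with the whole element in capitals, since these genes rose by unequal amounts and both carry it upstream of the start.
Dnajc3: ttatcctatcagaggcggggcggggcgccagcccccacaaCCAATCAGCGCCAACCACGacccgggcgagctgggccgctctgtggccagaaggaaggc
Hspa5: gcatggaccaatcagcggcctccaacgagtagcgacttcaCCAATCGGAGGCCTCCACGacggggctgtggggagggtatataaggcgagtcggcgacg

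Lysosomal and autophagy genes had 11 lasting rises among 23 tested (47.8%), no lasting fall and a median of 0.32. The rises came to 3 without the trend and to 7 without suffixed probe sets. Ctsk, a cysteine protease of the lysosome, read 9.76 and 9.75 against 11 and 11.16 at day 3 and 8.96 and 8.91 against 10.47 and 10.42 at day 6 (2.67-fold, log2 1.42, SE 0.08, adjusted p = 5.02e-06). Hexa, a subunit of hexosaminidase, rose by 1.0 and 0.57 (adjusted p = 0.000396). Ctsd, an aspartic protease, rose by 0.34 and 0.29 (adjusted p = 0.00245), a call lost without the trend (adjusted p = 0.0781). Gpnmb, a glycoprotein of lysosomes and melanosomes that is not on the list, rose by 1.31 and 1.36 (adjusted p = 8.64e-05). The site read by TFEB, the regulator of lysosomal genes, was searched as GTCACGTG. It was found in 5 of 24 promoters of the whole list, lasting or not, and 3.96% of those of all genes tested. Lasting rises had it in 5.92% of promoters and lasting falls in 2.81%. The window of Ctsd (chr7:142387878-142387965, minus strand) shows one, in reverse.
Ctsd: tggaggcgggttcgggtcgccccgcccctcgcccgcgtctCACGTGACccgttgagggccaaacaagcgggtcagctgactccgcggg

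NRF2 targets and metallothioneins, the oxidant and metal defence genes, had 8 lasting rises among 21 tested and no lasting fall (median 0.19); 2 rises were left without the trend. Srxn1, which restores oxidised peroxiredoxins, read 9.43 and 9.40 against 9.98 and 10.06 at day 3 and 9.09 and 9.29 against 10.10 and 10.09 at day 6 (1.68-fold, log2 0.75, SE 0.10, adjusted p = 0.000868). Slc7a11 belongs to this list as well as to the transporters. The antioxidant response element, searched as TGACNNNGC, was about as frequent in promoters of lasting rises (13.9%) and falls (13.6%) as in all tested (13.9%). Gadd45a, a growth arrest gene, rose by 1.44 and 0.93 (adjusted p = 0.000382). It was the 1 lasting member among 18 tested p53 targets (5.56%), near the 5.46% of lasting rises in all genes. Of 18 tested G1 cyclins and CDK inhibitors 1 was a lasting rise (5.56%) and 3 were lasting falls (16.7%), against 5.46% and 4.55% of all genes. The rise was Cdkn2b, the inhibitor p15 of CDK4 and CDK6 (0.57 and 0.77, adjusted p = 0.000692). The falls were Cdkn2d, the related inhibitor p19 (-0.51 and -0.45, adjusted p = 0.0192), Rb1, the retinoblastoma protein (-0.23 and -0.40, adjusted p = 0.0126), and the cyclin Ccnd3 (-0.69 and -0.25, adjusted p = 0.0202). With the share of rises near that of all genes and few falls, no direction of the inhibitors is read from these counts. The call of Cdkn2d was lost without DMSO day 3 replicate 1, CSA day 3 replicate 2, DMSO day 6 replicate 1 or CSA day 6 replicate 2 (adjusted p = 0.0542 to 0.0651), and that of Ccnd3 without any 1 array of day 3 or DMSO day 6 replicate 1 (adjusted p = 0.0521 to 0.0655). The falls came to 0 without the trend and to 1 without DMSO day 3 replicate 1 (where 3 rises were counted), CSA day 3 replicate 2 or DMSO day 6 replicate 1.

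The largest falls did not belong to one pathway. Ptprz1, a receptor phosphatase of glia, read 8.90 and 8.84 in DMSO and 7.11 and 8.03 in CSA at day 3, and 10.50 and 10.51 against 8.68 and 8.69 at day 6 (2.94-fold lower, log2 -1.56, SE 0.18, adjusted p = 0.00048). Fbp2, the muscle fructose bisphosphatase, read 9.38 and 9.30 against 8.18 and 7.96 at day 3 and 10.20 and 10.30 against 8.47 and 8.63 at day 6 (2.80-fold lower, log2 -1.49, SE 0.12, adjusted p = 5.35e-05). Eno3, the muscle enolase, read 11.98 and 11.95 against 10.55 and 10.60 at day 3 and 10.86 and 10.81 against 9.66 and 9.49 at day 6 (2.51-fold lower, log2 -1.33, SE 0.07, adjusted p = 3.02e-06). The groups did not overlap at either day, and only Ptprz1 had CSA replicates far apart.

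Further large falls were Acsl6, a long-chain acyl-CoA synthetase (-1.11 at day 3 and -2.65 at day 6, adjusted p = 0.00151), Cox6b2, a cytochrome c oxidase subunit typical of testis (-1.08 and -2.03, adjusted p = 0.000218), and Ecscr, an endothelial surface protein (-1.05 and -1.06, adjusted p = 5.96e-05). Acsl6 and Cox6b2 fell further at day 6 by the interaction test (-1.54 and -0.96). Notch4, a Notch receptor, fell by 1.09 and 1.13 on its brightest probe set (adjusted p = 0.000148) but was not called on the mean of its probe sets (-0.37, adjusted p = 0.398).

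Genes of cell division were lower mainly at day 3. Of the G2 and mitosis list 27 members passed as lower at day 3 and 7 at day 6, and of the replication list 22 and 3, against 5.52% and 6.11% of all genes. Of 34 tested genes of G2 and mitosis 18 were lasting falls (52.9%) and none was a lasting rise, with all but 1 effect below 0 and a median of -0.63 at day 3 and -0.21 at day 6. The falls came to 11 or 10 without DMSO or CSA day 3 replicate 2 and to 4 without the trend. Cdc20, the activator of the anaphase-promoting complex, read 13.17 and 13.13 in DMSO and 12.82 and 12.74 in CSA at day 3, and 12.96 and 13.12 against 12.50 and 12.55 at day 6 (1.36-fold lower, log2 -0.44, SE 0.06, adjusted p = 0.000889). Ccnb2, a mitotic cyclin, fell by 0.56 and 0.39 (adjusted p = 0.00528), and Aurkb, a kinase of chromosome segregation, by 0.71 and 0.41 (adjusted p = 0.00629). Cdk1, the mitotic kinase, fell by 0.91 and 0.30 (adjusted p = 0.00819), less at day 6 by the interaction test (0.61, adjusted p = 0.0216), and lost its call without the trend (adjusted p = 0.0865).

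DNA replication genes had 10 lasting falls among 34 tested (29.4%), no effect above 0, and a median of -0.65 at day 3 and -0.12 at day 6. Without DMSO day 3 replicate 1 or CSA day 3 replicate 1 or 2, 6, 5 or 4 falls were lasting, and 1 was without the trend. Gins1, of the replicative helicase, read 9.94 and 10.00 against 9.22 and 9.19 at day 3 and 9.43 and 9.43 against 8.94 and 8.91 at day 6 (1.55-fold lower, log2 -0.63, SE 0.09, adjusted p = 0.00217). Mcm6 fell by 0.54 and 0.30 (adjusted p = 0.0041), and lost its call without the trend (adjusted p = 0.0695). Mcm5, another helicase subunit, shows the part of the list that did not last: it was 0.98 lower at day 3 (adjusted p = 3.04e-05) and -0.01 at day 6 (adjusted p = 0.974), with an interaction of 0.97 (adjusted p = 0.000914). Over both days it passed only without DMSO day 6 replicate 2 (adjusted p = 0.0459) or on the mean of the 2 effects (adjusted p = 0.000108). In bulk samples fewer cells of a kind and less RNA per cell cannot be told apart.

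Sites of E2F, the factor family that drives S phase genes, were searched as TTTGGCGC and TTTCCCGC. They were found in 10 of 35 promoters of the whole replication list, lasting or not, and in 2.83% of those of all genes tested. Lasting falls had them in 4.64% of promoters and lasting rises in 1.13%. The cell cycle homology region TTTGAA, a short element of mitotic promoters, was found in 22 of 29 promoters of the whole G2 and mitosis list. Its share was 12% in all tested, 17.9% in lasting falls and 11.5% in lasting rises. The Mcm6 window at chr1:128359706-128359792 (minus strand) holds an E2F match.
Mcm6: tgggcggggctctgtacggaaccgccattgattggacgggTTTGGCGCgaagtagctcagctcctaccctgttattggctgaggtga

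Some lists of signalling, chromatin and glycolysis genes held a few lasting falls each, beside 4.55% of all genes that were lasting falls. ERK feedback genes had 3 lasting falls among 12 tested, all 3 passing at each day (median -0.24; 1 without the trend). Etv4, an ETS factor downstream of ERK, read 7.79 and 7.98 against 6.73 and 6.35 at day 3 and 8.15 and 8.07 against 6.88 and 7.44 at day 6 (2.22-fold lower, log2 -1.15, SE 0.19, adjusted p = 0.00406). Etv5 fell by 0.72 and 0.83 (adjusted p = 0.00275), a call lost without the trend (adjusted p = 0.0546). Wnt targets and antagonists had 3 among 15 (20.0%), with Apcdd1 at -0.92 and -0.52 (adjusted p = 0.000763) and the secreted antagonist Sfrp1 at -0.67 and -0.88 (adjusted p = 0.00404). Hdac1, a histone deacetylase, fell by 0.39 and 0.48 (adjusted p = 0.00118). It was 1 of 6 lasting falls among 29 chromatin genes (20.7%). These came to 2 or 3 without CSA day 3 replicate 1 or 2 and to 3 without DMSO day 6 replicate 1. They came to 1 without the trend and to 2 without suffixed probe sets. The glucose transporter Slc2a1 fell by 0.84 and 0.62 (adjusted p = 8.64e-05). It was 1 of 4 lasting falls among 26 glycolysis and hypoxia genes (15.4%), and Eno3 is another.

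Of 20 tested genes of the pluripotency network 4 were lasting falls (2 without suffixed probe sets). None was a lasting rise, but the list as a whole did not share a direction: its median was 0.15 at day 3 and -0.42 at day 6, and 3 members passed the interaction test. A further 11 of the list lay below the filter. Dnmt3b, the de novo DNA methyltransferase, read 10.05 and 10.03 in DMSO and 9.18 and 9.17 in CSA at day 3, and 9.33 and 9.47 against 8.25 and 8.0 at day 6 (2.10-fold lower, log2 -1.07, SE 0.12, adjusted p = 0.000282). L1td1, an RNA-binding protein of pluripotent cells, fell by 0.45 and 0.48 (adjusted p = 0.000707), and Fgf4, a growth factor they secrete, by 0.52 and 0.62 (adjusted p = 0.0053). Pou5f1 was not among them: it read 9.18 and 8.58 against 9.53 and 9.21 at day 3 and 10.31 and 10.11 against 9.07 and 9.21 at day 6. It was higher with CSA at day 3 without passing (adjusted p = 0.13) and lower at day 6 (adjusted p = 0.00435).

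**Figure D3:**
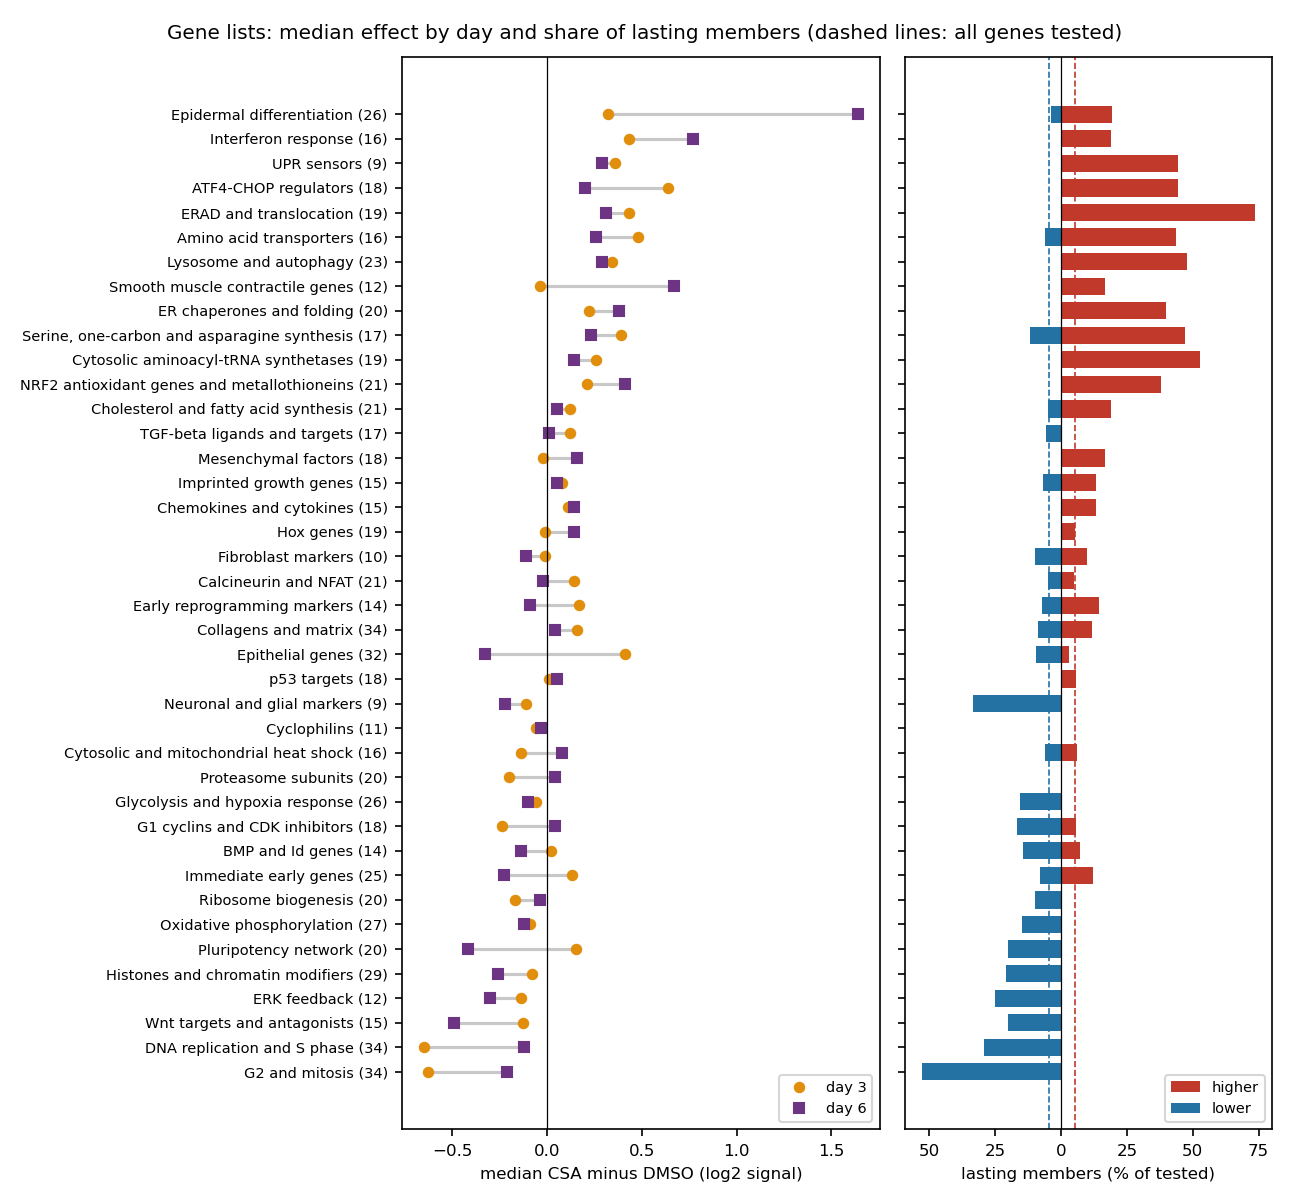
Left, median CSA minus DMSO (log2 signal) of each gene list with at least 9 tested members at day 3 (circles) and day 6 (squares), with the number tested in brackets; right, the share of tested members that were lasting rises (red) or lasting falls (blue), with dashed lines at 5.46% and 4.55% for all genes tested. Both symbols of the ER, lysosome and amino acid lists lie right of 0, both of the 2 cell division lists lie left of it, and the epithelial list has its symbols on opposite sides.

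Few genes of the pathway that CSA is known to inhibit changed in the same direction at both days, though more passed at single days. Of 21 tested calcineurin and NFAT genes 4 were higher and 3 lower at day 3, and 0 were higher and 4 lower at day 6. Of all genes 7.14% were higher and 5.52% lower at day 3, and 6.41% and 6.11% at day 6. The list thus stood above all genes at single days, except for rises at day 6. Over both days 1 was a lasting rise and 1 was a lasting fall, 4.76% each, near the 5.46% and 4.55% of all genes. Rcan1, a calcineurin inhibitor that NFAT itself induces, read 11.98 and 12.01 in DMSO and 11.97 and 11.99 in CSA at day 3, and 11.65 and 11.55 against 11.31 and 11.32 at day 6 (log2 -0.15, SE 0.07, adjusted p = 0.225). It was lower at day 6 (-0.28, adjusted p = 0.0242), and the difference between the days did not pass (adjusted p = 0.161).

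The calcineurin subunits Ppp3ca, Ppp3cb and Ppp3r1 had effects of 0.17, 0.04 and -0.06 (adjusted p = 0.16, 0.827 and 0.637), and the factors Nfatc1, Nfatc2, Nfatc3 and Nfatc4 of 0.10, -0.10, 0.29 and -0.29 (adjusted p = 0.688, 0.829, 0.069 and 0.0906). Nfatc1 and Ppp3cb changed sign on the mean of their probe sets (-0.08 and -0.12), and Nfatc2 changed sign there (0.17) and without DMSO or CSA day 6 replicate 2 (0.08 and 0.06). The lasting rise was Nfat5, the osmotic stress factor that calcineurin does not control, at 0.75 and 0.17 (adjusted p = 0.0466). This did not hold without suffixed probe sets (-0.11, adjusted p = 0.777) or without any 1 array other than DMSO day 6 replicate 2 and CSA day 6 replicate 2 (adjusted p = 0.0796 to 0.139). The lasting fall was Nfatc2ip, which binds NFAT, at -0.50 and -0.31 (adjusted p = 0.0164). The call was lost without the trend (adjusted p = 0.0628) and without DMSO day 3 replicate 1 or CSA day 3 replicate 1 or 2 (adjusted p = 0.0516, 0.0524 and 0.0563). Nfatc4 passed without DMSO day 3 replicate 1 (-0.37, adjusted p = 0.0403). By limma none of 11 tested cyclophilins, the direct partners of CSA, passed over both days, and 0 of them had an unadjusted p under 0.05. mRNA levels do not measure the phosphatase or the place of NFAT in the cell. The NFAT core GGAAAA was as frequent in promoters of lasting rises (21.0%) and falls (19.7%) as in those of all genes tested (20.5%).

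**Figure D4:**
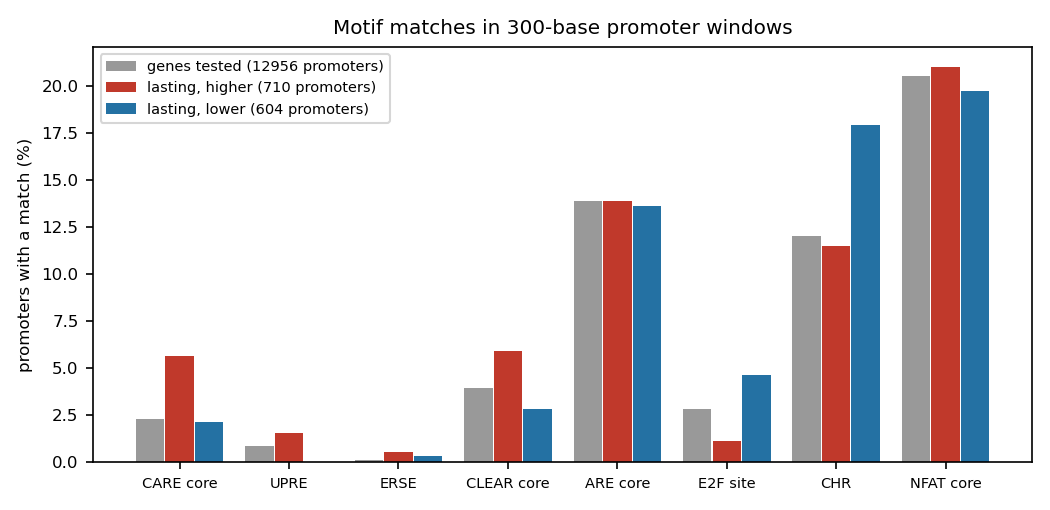
Share of promoters (%) with at least 1 match of each of 8 motifs, for all genes tested (grey), lasting rises (red) and lasting falls (blue). The ATF4 composite core (CARE) stands at 5.63% in lasting rises against 2.30% in all, the E2F site at 4.64% in lasting falls against 2.83%, and the NFAT core at about the same height in all 3 sets.

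Several groups did not share a direction at the days and are outside the common response. Of 32 tested epithelial genes 14 were higher at day 3 and 10 were lower at day 6, with medians of 0.41 and -0.33. Of all genes 7.14% were higher at day 3 and 6.11% were lower at day 6. Cdh1 (E-cadherin) was 0.29 higher at day 3 (adjusted p = 0.0192) and -0.50 at day 6 (adjusted p = 0.000879), an interaction of -0.79 (adjusted p = 0.00171). Krt19 is 1 of the 3 lasting falls of that list, at -0.81 and -0.62 (adjusted p = 0.000723); 1 fall was left without the trend and without DMSO day 6 replicate 1 or 2 or CSA day 6 replicate 1. Alpl, the alkaline phosphatase of early reprogramming, was 1.92 higher at day 3 (adjusted p = 0.00217) and -0.12 at day 6 (adjusted p = 0.867). Acta2, smooth muscle actin, was -0.07 at day 3 (adjusted p = 0.695) and 0.74 higher at day 6 (adjusted p = 0.000358); over both days it passed only without DMSO day 3 replicate 2 (adjusted p = 0.0447) or on the mean of the 2 effects (adjusted p = 0.00342). The interaction passed for 726 genes (5.79%), with the day 6 effect the higher in 2.36% of genes and the lower in 3.43%. Of the 726, 99 were lasting: 48 of these had the larger effect at day 3 and 51 at day 6. Without CSA day 3 replicate 1 or 2, DMSO day 6 replicate 1 or 2 or CSA day 6 replicate 2, 256, 264, 337, 274 or 374 genes passed it.

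The epidermal differentiation list had 5 lasting rises (19.2%) and 1 lasting fall (3.85%) among 26 tested, against 5.46% and 4.55% of all genes. Its median, however, was 0.32 at day 3 and 1.64 at day 6. Krt1, a keratin of differentiating skin, read 6.27 and 7.18 against 8.25 and 8.12 at day 3 and 7.57 and 7.51 against 9.03 and 9.29 at day 6 (2.90-fold, log2 1.54, SE 0.19, adjusted p = 0.000695). Lce1f, of the cornified envelope, read 5.70 and 5.87 against 6.08 and 6.65 at day 3 and 5.37 and 5.70 against 8.89 and 8.72 at day 6, so that it met the count with most of its effect at day 6 (interaction 2.69, adjusted p = 0.0117). Its call over both days was lost without any 1 of the 4 arrays of day 6 (adjusted p = 0.0721 to 0.0892). The list had 9 lasting rises without DMSO day 3 replicate 1 or 2, 3 without DMSO day 6 replicate 1, and 2 without DMSO day 6 replicate 2 or CSA day 6 replicate 1 or 2. It had 2 without the trend.

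Markers of other cell types were summed on the linear scale for each array. Fibroblast markers, which DMSO and CSA cells expressed at both days, came to 33033 to 34414 in CSA and 33816 to 35642 in DMSO at day 3, and to 56616 to 58589 and 54559 to 55424 at day 6. Of the 10 fibroblast markers, all tested, 1 was a lasting rise and 1 was a lasting fall (10.0% each, against 5.46% and 4.55% of all genes). The rise was Fn1, fibronectin (0.71 and 0.18, adjusted p = 0.0176), and the fall was Col3a1, a fibrillar collagen (-0.31 and -0.85, adjusted p = 0.00612); neither call held without the trend (adjusted p = 0.124 and 0.0768). Fn1 also lost its call without DMSO day 3 replicate 1 or CSA day 3 replicate 1 or 2 (adjusted p = 0.0501, 0.0572 and 0.0601). Thy1 and Col1a1 had effects of 0.08 and -0.13 over both days (adjusted p = 0.675 and 0.515). Adipocyte markers summed to 2293 to 2453 in CSA and 1629 to 1882 in DMSO at day 3 and to 1816 to 1867 and 911 to 979 at day 6, with 2 lasting rises among 5 tested (0 without the trend) and the other 5, Adipoq among them, below the filter. At day 6 that sum moved mostly with Lpl, lipoprotein lipase, which read 8.37 in DMSO and 10.01 in CSA as group means and was called but not lasting (0.91, adjusted p = 0.0368). The call was lost without the trend and without any 1 array except DMSO and CSA day 3 replicate 1 (adjusted p = 0.0526 to 0.161). Of 9 tested neuronal and glial markers 3 were lasting falls (33.3%, against 4.55% of all genes), or 1 without suffixed probe sets. The list had no common direction, with 4 of 9 effects above 0 and a median of -0.04. Mbp, a myelin protein, was a lasting fall (-0.72 and -1.45, adjusted p = 0.000866). Tubb3, another marker, passed in opposite directions (-0.47 at day 3 and 0.39 at day 6). The neuronal and glial list summed to 21964 to 22582 in CSA and 24151 to 25369 in DMSO at day 3. At day 6 the sum was 17004 to 17450 in CSA and 19625 to 20501 in DMSO. Most of this sum was the signal of Stmn2, a microtubule regulator of neurons, with group means of 14.07 in DMSO and 13.95 in CSA at day 3 and 13.80 and 13.58 at day 6; its call (-0.17, adjusted p = 0.0472) held in 5 of 21 other settings and was lost without any 1 array except DMSO day 3 replicate 2. By limma none of 8 tested macrophage markers passed, 2 of them with an unadjusted p under 0.05, and 8 more lay below the filter. The part of such cells in the values above was not tested.

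The count of lasting genes ends in a continuous range of p-values. Just inside the threshold stood Nosip (-0.37), Cdca2 (-0.46) and Commd3 (0.24), and just outside, with arrays equally apart, Lypd2 (-0.65), Cert1 (0.34) and Set (-0.20). All 6 changed sides without at least 1 of the 8 arrays.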

How the data were processed

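Per the labels' protocols, RNA was extracted with TRIZOL, purified and labelled with the 3' IVT Express kit, and 8 arrays in 4 groups of 2 were read. The design text calls the repeats biological, but nothing ties them to animals or cultures, so p-values measure the spread between these samples. The authors deposited log2 signals, 1 per probe set and array. MAS5 is named in the submitters' processing notes, while version, scaling and any batch remain unknown here. It gives 1 scaled signal per probe set, and dim signals and their folds are set largely by background. The trimmed mean of the anti-logged values ran from 496.8 to 497.5, and 110 to 259 values per array were 0.

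Of 45037 probe sets, 27022 passed the filter, a mean signal no lower than the 40th percentile (5.37). The platform annotation gave 1 symbol for 34945, several for 932 and none for 9160; only the first were named. limma 3.58.1 in R 4.3.3 fitted day and treatment (5 residual degrees of freedom), and 1 mean per group (4) for each day and the day by treatment interaction. The prior variance followed the signal level (intensity trend). P-values are two-sided, Benjamini-Hochberg adjusted over all probe sets that passed, and called under 0.05. The number of arrays limits the precision. The fits were tested on simulated data.

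Members and gene lists were chosen with earlier results of these data known. Genes named are the 15 rises and 15 falls with the largest smaller-of-the-days effect and a mean signal of at least 7, up to 5 members of each list by smallest p, a fixed set around ATF4, the unfolded protein response, calcineurin, reprogramming and cell division, and 3 genes on each side of the threshold. Not every such gene is described. Gas5 falls outside the rule. Replicate numbers did not pair the arrays (correlations of replicate differences between groups -0.00344 to 0.0343). Promoters and motifs came from RefSeq (GRCm38.p6), which matched 10130 of 12529 tested and 1002 of 1254 lasting genes. Other settings were normalization, filters, trend, pseudocounts of 8 and 32, a floor at 5, replicate blocks, other probe sets per gene, and leaving out each array.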

Additional observations from a re-analysis of the deposited data

Results flagged for a closer look

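For 16 of the genes described, the CSA effect differed between the days by the interaction test of limma (day 6 effect minus day 3 effect, adjusted p). Among lasting rises this held for Aldh1l2 (-1.94, adjusted p = 0.000781), Ero1a (-0.71, adjusted p = 0.0101) and Xbp1 (-0.40, adjusted p = 0.0371), whose rise was larger at day 3. The rise of Fn1 was larger at day 3 too (-0.54, adjusted p = 0.0162). The rise of Lce1f was larger at day 6 (2.69, adjusted p = 0.0117). Among lasting falls it held for Acsl6 (-1.54, adjusted p = 0.011), Cox6b2 (-0.96, adjusted p = 0.00448), Mbp (-0.73, adjusted p = 0.0299) and Col3a1 (-0.54, adjusted p = 0.0314), which fell further at day 6. Cdk1 fell further at day 3 (0.61, adjusted p = 0.0216).

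Among genes that were not lasting it held for Mcm5 (0.97, adjusted p = 0.000914), Lpl (1.45, adjusted p = 0.0029), Cdh1 (-0.79, adjusted p = 0.00171), Pou5f1 (-1.56, adjusted p = 0.00907), Alpl (-2.04, adjusted p = 0.0211) and Acta2 (0.81, adjusted p = 0.00448). No cause of these differences was tested. Without the intensity trend the interaction passed for 0 genes by limma, and 2246 had an unadjusted p under 0.05.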

How the results depend on the processing

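The variance model mattered most. Without the intensity trend, 186 genes were higher and 140 lower in the additive fit, and as many were lasting. Under it 56 and 23 passed at each day, 274 at day 3, 423 at day 6, 0 for the interaction (limma; 2246 at an unadjusted p under 0.05) and 5 in opposite directions. Of the 1254 lasting genes 312 were kept (24.9%). With the mean of the 2 effects from the group-means fit, 1213 were higher and 1111 lower, and 861 lasting falls were counted. With a replicate block within day the additive fit gave 387 and 266 and the lasting count 384 and 264. With 1 replicate block over all arrays 592 and 473 genes were lasting, 1046 of them shared. As the numbers do not pair the arrays, neither describes a weaker effect. Leaving out 1 array gave 434 to 554 higher and 304 to 424 lower in the additive fit, 433 to 553 and 304 to 423 lasting. It gave 133 to 233 and 73 to 124 at each day, 643 to 1627 at day 3, 687 to 1715 at day 6, 256 to 610 for the interaction and 17 to 60 in opposite directions. Quantile normalization kept 95.5% of the lasting genes and centring 96.0%. Of 254 genes that the naming rule selects, 16 changed sign under at least 1 setting, and of those Nfat5 alone had been called. Values are given for the genes described only, a choice made after seeing the data. Of the 163 lasting ones selected, 65 kept direction and call in every setting run, and 27 lost it only without the trend. Signs turned for Nfat5 (-0.11) and Gas5 (-0.13) when suffixed probe sets were left out. They also turned for Nfatc1 (-0.08), Nfatc2 (0.17), Ppp3cb (-0.12) and Col1a1 (0.03) when probe sets of 1 gene were averaged. Leaving out 1 array gave 0.00 to 0.10 for Ppp3cb and -0.28 to 0.08 for Nfatc2, which was above 0 without DMSO or CSA day 6 replicate 2 (0.08 and 0.06). The cause was not tested. With 2 arrays per group, small effects and dim genes are limited most.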

Other observations

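Some lasting genes lay outside the groups described. Cd34, a surface sialomucin, was higher with CSA at both days: 9.73 and 10.09 in DMSO and 10.65 and 10.77 in CSA at day 3, and 10.89 and 10.73 against 11.85 and 11.55 at day 6 (1.80-fold, log2 0.85, SE 0.10, limma adjusted p = 0.000487). Col6a1, a collagen VI chain, was lower by a like amount at each day: 10.81 and 10.68 against 9.99 and 10.07 at day 3, and 10.79 and 10.88 against 9.99 and 10.07 at day 6 (1.69-fold lower, log2 -0.76, SE 0.08, adjusted p = 0.000162). Of 34 tested collagen and matrix genes 4 were lasting rises (11.8%) and 3 were lasting falls (8.82%), against 5.46% and 4.55% of all genes. The rises came to 2 without CSA day 3 replicate 1, DMSO day 6 replicate 1 or 2, or CSA day 6 replicate 2. They came to 0 without the trend. Without DMSO day 3 replicate 1 there were 5 falls. Of 16 tested interferon response genes 3 were lasting rises (18.8%, against 5.46% of all genes), with a median of 0.71. The rises came to 1 without the trend, without CSA day 3 replicate 1 or 2, without DMSO day 6 replicate 1 or 2 or without CSA day 6 replicate 1, and to 0 without CSA day 6 replicate 2. Among them Irf9, a subunit of the interferon-activated factor ISGF3, was higher by 0.71 and 0.56 (adjusted p = 0.0166), a call that was lost without CSA day 3 replicate 1, DMSO day 6 replicate 1 or CSA day 6 replicate 2 (adjusted p = 0.0545, 0.0517 and 0.0506).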
